A study of Mus musculus with 6 samples.

Results

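The genes described here are 10 genes of the p53 pathway, taken by their symbols from the 16140 genes of the deposited table: Trp53, which encodes p53, and 9 genes that p53 is known to switch on (Mdm2, Trp53inp1, Cdkn1a, Ccng1, Bax, Phlda3, Sesn1, Gdf15 and Eda2r). All 10 have a row in the table, and 9 of them had enough counts to be tested among 12173 genes. Eda2r did not. Bulk poly(A) RNA was sequenced from 3 control livers of genotype Selofl/fl, which carry floxed alleles of Selenoo without Cre, and from 3 knockout livers of genotype Selofl/fl Alb-Cre, all from mice on a normal diet. Selenoo encodes SelO, a selenoprotein of mitochondria. Both groups share the floxed alleles, and what Cre does by itself cannot be told apart from what the deletion does. Alb-Cre is driven by the albumin promoter of hepatocytes, and which other liver cells keep the gene was not measured here. The sources used here give no age, sex or strain. They do not state that the libraries are from separate animals either, so the p-values rest on the spread between libraries, which may be in part technical.

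p53 is a transcription factor that cells hold at a low protein level and stabilise after DNA damage and other stress. It binds paired decamers in DNA and switches on genes that stop the cell cycle, repair DNA, start apoptosis, restrain growth signalling and, through Mdm2, remove p53 itself. Because p53 is controlled mainly through its protein, its mRNA level and its activity need not move together, and several of its targets, Cdkn1a and Gdf15 among them, also answer to other stress and hormone signals in liver.

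Promoter windows were read for the sequence that p53 binds. RefSeq windows on GRCm38.p6, from 250 bases before to 50 bases after an annotated start, were found for 9 of the 10 members, as 12 windows, and not for Trp53inp1. The p53 consensus half-site, a decamer of purines, then C, then A or T letters, then G and pyrimidines, was searched for by exact match; the pattern is its own reverse complement, so a single scan covers both strands. It was present in 6 of the 12 windows, which belong to 6 members, and in 8.36% of all 32851 windows of the same length. The stretches that hold it are given below in the direction of the gene, with the half-site in capitals, because they are the letters by which a reader can recognise a candidate p53 site. A match is a description of sequence and does not show binding.
Cdkn1a, chr17:29090918-29090947, plus strand: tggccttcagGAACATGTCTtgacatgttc
Cdkn1a, chr17:29090896-29090925, plus strand: tcctgggtggGGACTAGCTTtctggccttc
Mdm2, chr10:117710925-117710954, minus strand: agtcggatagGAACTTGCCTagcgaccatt
Bax, chr7:45467080-45467109, minus strand: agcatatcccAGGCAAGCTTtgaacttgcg
Ccng1, chr11:40755452-40755481, minus strand: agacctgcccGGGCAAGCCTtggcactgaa
Sesn1, chr10:41887256-41887285, plus strand: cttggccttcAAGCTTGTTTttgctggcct
Trp53, chr11:69580274-69580303, plus strand: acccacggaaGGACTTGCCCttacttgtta

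The bases that follow the half-site were compared with the consensus for Cdkn1a only, and are given here for its first stretch. Its next 10 bases, TGACATGTTC, differ from the consensus at 1 base, so that half-sites lie back to back as in a paired p53 element. The 10 bases that follow the half-site of the second Cdkn1a stretch differ from the consensus at 7. The Cdkn1a window was the only member window with 2 exact half-sites at most 13 bases apart, an arrangement held by 24 of the 32851 windows (0.0731%). That count is of exact pairs, here the capitals of the 2 Cdkn1a stretches, and does not cover the back-to-back pair with its 1 mismatch. This Cdkn1a window belongs to the upstream of the 2 annotated Cdkn1a starts, at position 29090979 of chromosome 17. The half-site of the first stretch begins 51 bases before that start and that of the second stretch 73 bases before it. The window of the downstream start, at 29093769, held no half-site, nor did the windows of Phlda3, Gdf15 and Eda2r or that of the upstream Sesn1 start. No match says only that these letters are not in these windows, since many p53 sites lie in introns or farther upstream.

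The libraries held 15550287 to 18680196 rounded estimated counts each. Selenoo, the targeted gene, was at 84.2 to 96.1 CPM (counts scaled to library size with TMM factors) in the controls and at 6.29 to 9.32 CPM in the knockouts, as the labels say. The markers are those of the labelled tissue: 6 hepatocyte markers, among them Alb, summed to 140600 to 183800 CPM in the controls and 152800 to 178200 CPM in the knockouts, and none of the 6 passed the test (0 at an unadjusted p under 0.05 in edgeR, 0 with DESeq2). Between knockout and control, the quasi-likelihood test of edgeR called 181 of 12173 genes (1.49%) at an adjusted p of 0.05, 94 of them higher (0.772%) and 87 lower (0.715%).

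Among the p53 genes, Trp53 itself was the single gene past the threshold, and it was lower in knockout livers. None of the 8 tested targets passed in either direction, so that 0 of 9 tested members were higher and 1 of 9 was lower. Over all tested genes 1.49% were called, 0.772% higher and 0.715% lower. In CPM the groups did not overlap in 4 of the 9, where 25.2% of all tested genes show no overlap. In every knockout library Mdm2 and Trp53inp1 were above, and Trp53 and Sesn1 below, the range of the controls. At an unadjusted p under 0.05 in edgeR 4 of the 9 passed (Trp53, Trp53inp1, Mdm2 and Gdf15), against 18.5% of all genes, and DESeq2 called Trp53 and Trp53inp1. Over the 9 tested members 4 fold changes were positive and 5 negative, and the median log2 fold change was -0.13, beside -0.02 over all tested genes. Left out in turn, control replicates 1 and 2 turned this median to 0.19 and 0.13.

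**Figure D1:**
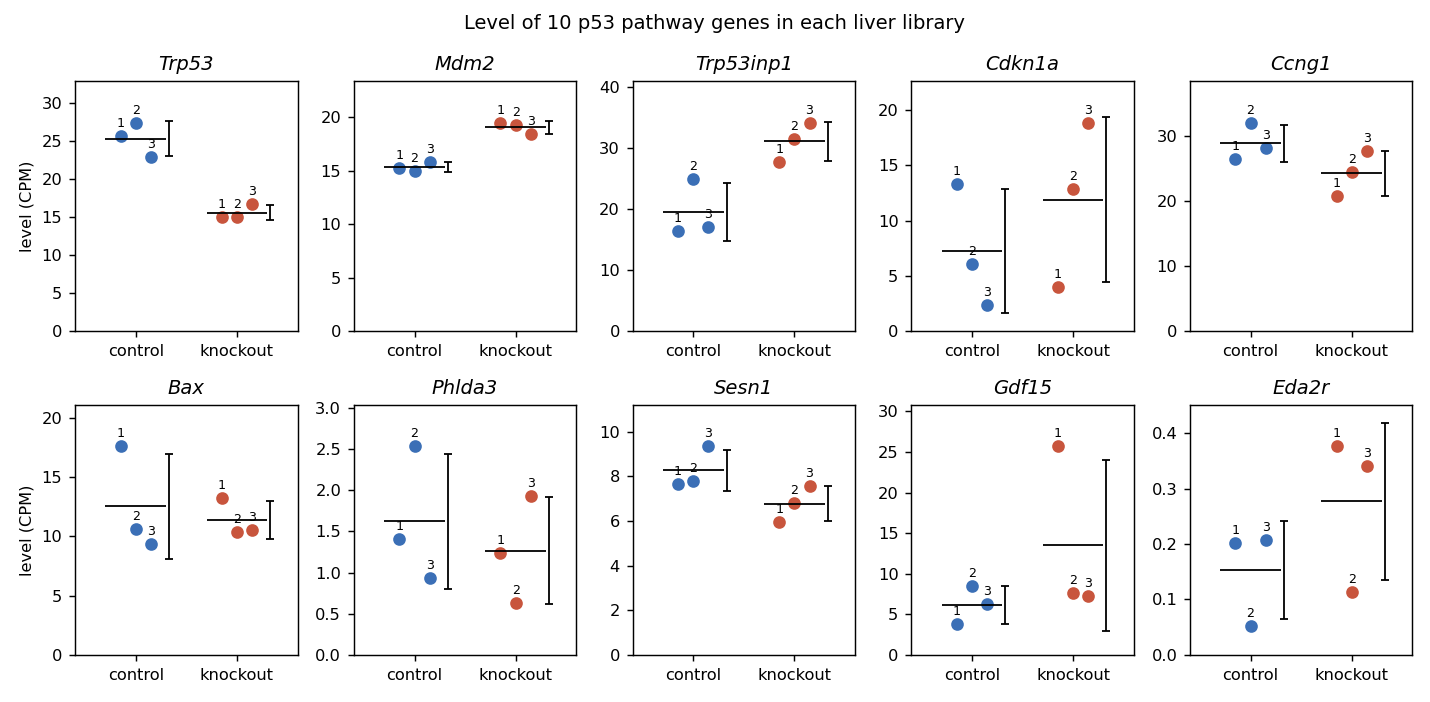
Level of each of the 10 genes in every library, in CPM on a linear axis from 0, with replicate numbers beside the points, the group mean as a horizontal line and the SD of 3 libraries as a bar. Trp53, Mdm2, Trp53inp1 and Sesn1 separate the groups without overlap, while Cdkn1a spans 2.33 to 18.9 CPM and Gdf15 has 1 high knockout library at 25.7 CPM.

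Compared per transcript length, in TPM (the authors' values scaled by transcript length), the members were of low to moderate abundance. Bax was the most abundant, at 20.6 to 29.6 TPM over the 6 libraries, followed by Trp53 at 11.99 to 23.3, Gdf15 at 3.52 to 29.4, Ccng1 at 8.42 to 12.9 and Mdm2 at 5.48 to 9.02 TPM. Cdkn1a lay between 1.91 and 13.7, Trp53inp1 between 3.31 and 7.94, Sesn1 between 3.04 and 5.05 and Phlda3 between 0.63 and 2.71 TPM. Each of these genes overlapped the next in this order, except that Sesn1 stood above Phlda3 and Phlda3 above Eda2r, at 0.04 to 0.20 TPM, in every library.

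Trp53 (NCBI Gene 22059, chromosome 11, 69580348 to 69591873, GRCm38.p6) was at 25.6, 27.4 and 22.9 CPM in control replicates 1 to 3 and at 14.99, 15.1 and 16.8 CPM in knockout replicates 1 to 3. Every knockout library lay below every control library. The means were 25.3 ± 2.30 CPM (SD, n = 3) in control and 15.6 ± 0.997 CPM (SD, n = 3) in knockout livers. The fitted change was -0.70 ± 0.13 (log2, SE), a ratio of 0.617 with a 95% interval of 0.503 to 0.756, and edgeR's adjusted p was 0.0372. In the authors' deposited table its log2 fold change was -0.69 with a q value of 0.00252. TPM values had the same order, at 17.3 to 23.3 in controls and 11.99 to 13.1 in knockouts. The call was close to the threshold. Without control replicate 2 the adjusted p was 0.131, and without knockout replicates 1, 2 and 3 it was 0.151, 0.188 and 0.12, while the fold change stayed between -0.76 and -0.63 in all 18 alternatives.

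In bulk tissue, fewer cells of a type and less RNA per cell cannot be told apart, and p53 mRNA is made by blood-derived cells as well as by hepatocytes. Markers of T and NK cells had a lower sum together with Trp53. The 7 of 8 listed markers in the table summed to 5.34 to 8.48 CPM in controls and 1.65 to 3.49 CPM in knockouts. Of these markers 0 of 5 tested passed (4 at an unadjusted p under 0.05 in edgeR, 1 with DESeq2). The untested Klrb1c went the other way, with means of 0.22 CPM in controls and 0.32 CPM in knockouts. All 7 markers were low, at 2 to 36 counts each per library. The 5 B and plasma cell markers summed to 11.1 to 22.8 CPM in controls and 5.23 to 7.42 CPM in knockouts, with 1 of 4 tested lower (Jchain, against 1.49% of all genes called). Jchain lost its call with the replicate block, with limma-voom, on log2(FPKM + 1) and log2(TPM + 1), without control replicate 2 and without any 1 of the knockout replicates. The 8 Kupffer cell and macrophage markers summed to 281 to 412 CPM in controls and 286 to 325 CPM in knockouts, with 0 of 8 past the threshold (2 at an unadjusted p under 0.05 in edgeR, 0 with DESeq2). All 8 fold changes were negative, with a median log2 fold change of -0.26, and edgeR called Marco and Adgre1 lower without control replicate 1. The 4 neutrophil markers in the table summed to 1.75 to 2.69 CPM in controls and 0.682 to 1.40 CPM in knockouts. Only S100a9, at 8 to 41 counts per library, was tested, and it did not pass (adjusted p = 0.248 in edgeR). S100a8, Retnlg and Cxcr2 were at 0 to 12 counts per library. The 6 endothelial cell markers summed to 255 to 269 CPM in controls and 211 to 258 CPM in knockouts, with 5 of 6 fold changes negative and 1 of 6 tested lower (against 1.49%). This was Lyve1, a hyaluronan receptor of sinusoidal and lymphatic endothelium, at -1.15 ± 0.18 (log2, SE; adjusted p = 0.0197 in edgeR), which both DESeq2 settings and limma-voom also called and which lost its call without control replicate 2 and without knockout replicates 1 and 3. Other cell types had no common direction and no call in edgeR. Fold changes were positive in 4 of 6 stellate cell and fibroblast markers, 1 of 5 cholangiocyte markers and 3 of 3 tested erythroid markers. The adipocyte marker Adipoq had 0, 42 and 0 counts in control replicates 1 to 3 and 7, 0 and 0 in knockout replicates 1 to 3. Cfd, the 1 tested adipocyte marker, had 60, 194 and 14 counts in controls and 44, 5 and 2 in knockouts. No marker of these lists was at 0 in all libraries. The part of these cells in the Trp53 values was not tested. Wrap53, the gene next to Trp53 that is read in the opposite direction, was looked at after the values were seen; it was at 5.95 ± 0.689 CPM in control and 5.91 ± 0.603 CPM in knockout livers (SD, n = 3), with a log2 fold change of -0.01 ± 0.17 (SE) and an adjusted p of 0.978.

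The genes whose log2 CPM ran most like that of Trp53 over the 6 libraries, among 12172 scanned, were Tuba4a, an alpha tubulin gene (Pearson r = 0.9955), Cwc22, a splicing factor gene (0.9948), Zfp709 (0.9938), Nufip1 (0.9914) and Ifi207 (0.9903). These r values describe libraries that fall into 2 groups and carry no test. Of the 5, Tuba4a (-1.23) and Nufip1 (-0.81) passed the test, and the other three had log2 fold changes of -0.47 to -0.64.

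Genes that act on p53 itself came next. Mdm2 encodes the ubiquitin ligase that marks p53 for destruction and is itself a p53 target. It was at 15.2, 14.99 and 15.9 CPM in control replicates 1 to 3 and at 19.5, 19.3 and 18.4 CPM in knockout replicates 1 to 3. The groups did not overlap, and the spread within each group was among the smallest of all genes, with a within-group SD of 0.0433 in log2 CPM, at percentile 0.526 of the tested genes. On the log2 scale the difference was 0.31 ± 0.12 (SE), a ratio of 1.24 with a 95% interval of 1.03 to 1.495, and the adjusted p was 0.209, so the difference did not pass. Its sign was positive in all 18 alternatives (0.22 to 0.34), and none of them gave a call.

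Trp53inp1, a nuclear and autophagy protein that promotes p53 activity and is induced by it, was at 16.4, 25.01 and 17.1 CPM in the controls and at 27.8, 31.4 and 34.2 CPM in the knockouts. All 3 knockout libraries were above all 3 controls, of which replicate 2 was the highest. The difference on the log2 scale was 0.67 ± 0.18 (SE; 95% interval 0.27 to 1.08), and edgeR's adjusted p was 0.103. The call depended on the tool, since DESeq2 gave adjusted p values of 0.0267 and 0.0296 in its 2 settings and the authors' deposited table a q value of 0.0353. Fold changes were positive in all 18 alternatives, from 0.52 to 0.89.

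The cell cycle genes showed no common direction. Cdkn1a encodes p21, the inhibitor of cyclin-dependent kinases through which p53 arrests the cell cycle. It was at 13.4, 6.10 and 2.33 CPM in control replicates 1 to 3 and at 3.98, 12.9 and 18.9 CPM in knockout replicates 1 to 3. The groups overlapped, with knockout replicate 1 below 2 of the 3 controls and control replicate 1 above 2 of the 3 knockouts. The highest library exceeded the lowest by 5.72-fold among controls and 4.75-fold among knockouts, and the within-group SD of 1.19 in log2 CPM was at percentile 99.6 of the tested genes. Knockout and control differed by 0.73 ± 0.61 on the log2 scale (SE; adjusted p = 0.543), and the 95% interval of the ratio ran from 0.638 to 4.33. The estimate moved from 0.73 to 1.49 without control replicate 1, to 1.15 without knockout replicate 1, to 0.31 without control replicate 3 and to 0.23 without knockout replicate 3. A change of p21 mRNA of up to about that upper bound, or a decrease, is therefore not resolved by these libraries.

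The deposited table places Cdkn1a on an unplaced or alternate sequence, with a start of 1789861 and an end of 29100722. RefSeq has it at 29090979 to 29100722 of chromosome 17, which suits only the deposited end. Reads from more than 1 placement may have been joined under this symbol, and its counts were used as deposited. The deposited span of Ccng1, 40739586 to 40755309 of chromosome 11, is longer than RefSeq's 40748552 to 40755309. The counts of Ccng1 were used as deposited too.

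Ccng1 encodes cyclin G1, which recruits a phosphatase to Mdm2 and is induced by p53. It was at 26.4, 32.0 and 28.1 CPM in controls and at 20.7, 24.5 and 27.6 CPM in knockouts. Knockout replicate 3 lay above control replicate 1, so the groups overlapped. Its fitted change was -0.25 ± 0.15 (log2, SE), with a 95% interval of the ratio of 0.668 to 1.06 and an adjusted p of 0.386.

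Bax, which permeabilises the outer mitochondrial membrane in apoptosis, was at 17.6, 10.6 and 9.39 CPM in controls and at 13.2, 10.4 and 10.5 CPM in knockouts. Replicate 1 was the highest library of each group, and the other four lay close together. The groups differed by -0.13 ± 0.24 (log2, SE; adjusted p = 0.79), and the interval of the ratio ran from 0.632 to 1.32, so that a doubling lies outside the interval. Its sign turned without control replicate 1, to 0.19, and with the trend of abundance on transcript length removed, to 0.03.

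Phlda3 and Sesn1 restrain growth signalling. Phlda3, a small protein that competes with the kinase AKT for membrane lipids, was at 1.41, 2.53 and 0.934 CPM in controls and at 1.24, 0.629 and 1.93 CPM in knockouts, from 11 to 49 counts per library. The groups overlapped throughout, and the log2 fold change of -0.37 ± 0.46 (SE; adjusted p = 0.699) turned to 0.13 without control replicate 2. Sesn1, a sestrin that holds back the growth kinase complex TORC1 when amino acids are short, was at 7.65, 7.80 and 9.34 CPM in controls and at 5.96, 6.80 and 7.56 CPM in knockouts. Its groups did not overlap in CPM, by a narrow margin between knockout replicate 3 and control replicate 1. In TPM they overlapped, at 3.33 to 5.05 in controls and 3.04 to 3.53 in knockouts. Its change of -0.29 ± 0.16 (log2, SE) had an interval of the ratio of 0.635 to 1.06 and an adjusted p of 0.376. No alternative gave a call for either gene.

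Gdf15 and Eda2r are the secreted and the receptor member. Gdf15 is a stress hormone of the TGF-beta family that lowers food intake through a brainstem receptor. It was at 3.83, 8.48 and 6.28 CPM in controls and at 25.7, 7.66 and 7.22 CPM in knockouts. Knockout replicate 1 stood at 478 counts and the other five libraries at 57 to 164. Knockout replicates 2 and 3 lay within the range of the controls. The log2 fold change of 1.12 ± 0.49 (SE), the largest among the members, had an adjusted p of 0.259 and was 0.26 without knockout replicate 1. Eda2r, a receptor for the A2 form of ectodysplasin in the tumour necrosis factor receptor family, had 3, 1 and 4 counts in controls and 7, 2 and 6 in knockouts. The summed counts of 8 and 15 gave a ratio of 1.87 scaled to library size, with an exact 95% counting interval of 0.744 to 5.09 that covers counting error only. A count of 0 would allow up to 3 counts, 0.161 to 0.193 CPM, and Eda2r was at or below 3 counts in 3 of the 6 libraries.

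**Figure D2:**
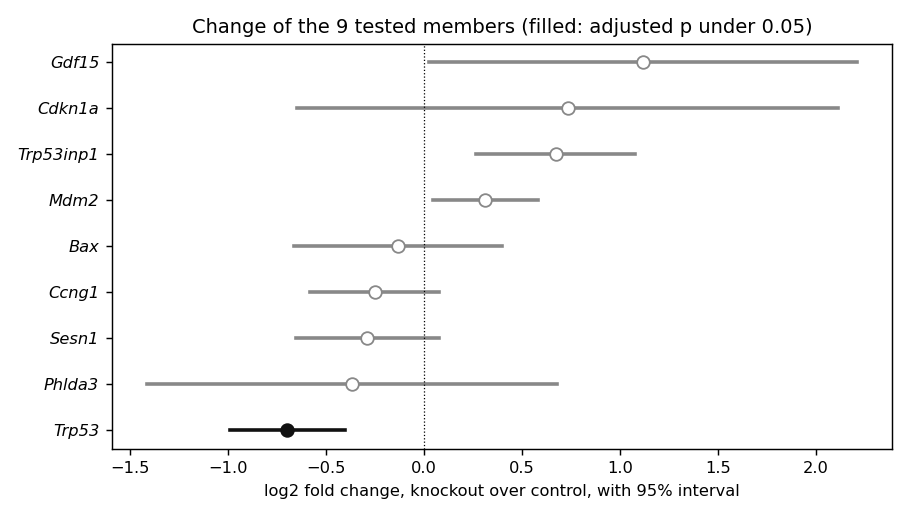
Log2 fold change of knockout over control for the 9 tested members, with the 95% interval from edgeR's fit; the filled point passed an adjusted p of 0.05. Trp53 (-0.70) is filled, and the intervals of Cdkn1a, Phlda3, Bax, Ccng1 and Sesn1 include 0.

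The members did not order the libraries in a common way. Knockout replicate 1 was the highest library for 3 members (Mdm2, Gdf15 and Eda2r) and the lowest for 3 (Trp53, Ccng1 and Sesn1), and control replicate 2 was the highest for 3 (Trp53, Ccng1 and Phlda3). Knockout replicate 3 had the highest Cdkn1a and Trp53inp1, and control replicate 1 the highest Bax. Cdkn1a and Gdf15, both widely spread, differed in which knockout library was high: knockout replicate 1 had the highest Gdf15 and the lowest Cdkn1a of its group.

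**Figure D3:**
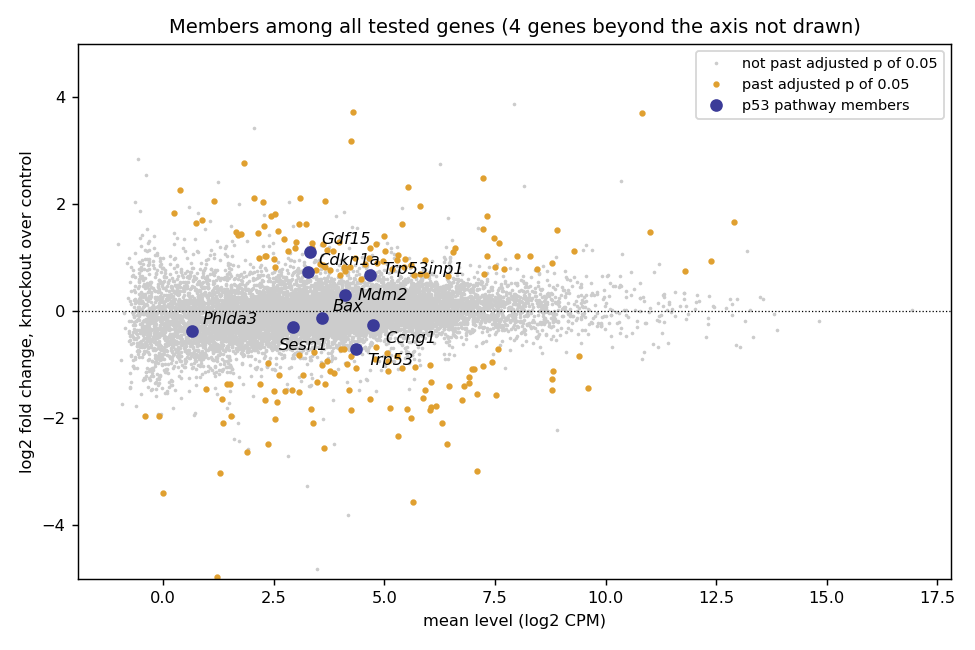
Log2 fold change against mean log2 CPM for the 12173 tested genes, with genes past an adjusted p of 0.05 in orange and the 9 tested members in blue. The members lie within the cloud of genes of like abundance, and Trp53 at -0.70 is at its lower edge.

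The rest of the pathway was read from a list of 62 other p53 targets, of which 59 are in the table and 52 were tested. Of the 52, 3 rose and none fell past the threshold (5.77%, against 1.49% of all genes), 28 fold changes were positive and 24 negative, and the median log2 fold change was 0.03, beside -0.02 over all genes. The signs were evenly divided under upper-quartile scaling (26 and 26) and mostly negative on log2(FPKM + 1) (23 and 29). The 3 were Btg2 and Tob1, antiproliferative proteins that recruit the deadenylation machinery, and Plk3, a stress-responsive polo-like kinase. Btg2 and Plk3 are also known as immediate early genes that respond within minutes to growth factor and stress signals. Groups did not overlap in 17 of the 52 (32.7%, against 25.2%).

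Btg2 was at 6.17, 7.70 and 7.36 CPM in controls and at 13.1, 22.1 and 16.2 CPM in knockouts, a log2 fold change of 1.27 ± 0.21 (SE; adjusted p = 0.0225). Tob1 was at 147, 113 and 128 CPM in controls and at 210, 232 and 252 CPM in knockouts, a log2 fold change of 0.84 ± 0.15 (adjusted p = 0.0326). Plk3 was at 108, 51.5 and 69.5 CPM in controls and at 144, 276 and 250 CPM in knockouts, a log2 fold change of 1.55 ± 0.31 (adjusted p = 0.0451). In all 3 every knockout library was above every control. These calls depended on single libraries: edgeR called none of the 52 targets when control replicate 2 was left out, or when either of knockout replicates 2 and 3 was, and 2 of them without knockout replicate 1. Plk3 also lost its call without control replicate 3 and under upper-quartile scaling. With 1 library left out the log2 fold change of Btg2 ran from 1.05 to 1.43, that of Tob1 from 0.75 to 0.94 and that of Plk3 from 1.33 to 1.89.

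The 52 targets were also divided by role. The division was made with the calls known, so it supports nothing about any role, and its counts stand beside 1.49% of all genes called, 0.772% of them higher, and 18.5% at an unadjusted p under 0.05. Of 9 tested cell cycle targets 3 were higher and none lower (5 at an unadjusted p under 0.05 in edgeR). There Gadd45a, a growth arrest gene, was at the other end, at -0.78 without a call. Of 10 tested apoptosis targets none passed (2 at an unadjusted p under 0.05 in edgeR; DESeq2 called Aen, a nuclease, lower in both settings), with fold changes from -0.87 for Dram1 to 0.37 for Perp. The BH3-only gene Bbc3, which encodes PUMA, was at 0.24 and Fas, the death receptor, at 0.04. None of 4 DNA repair targets passed (0 at an unadjusted p under 0.05 in edgeR, 0 with DESeq2), and they lay between -0.20 for Rrm2b and 0.19 for Polk. None of 15 targets in metabolism and TORC1 control passed (5 at an unadjusted p under 0.05 in edgeR; DESeq2 on all genes called Gls2, a glutaminase, higher, and DESeq2 on the filtered genes called 0 of the 15), with a range from -0.57 for Pltp to 0.72 for Sesn2. Among 14 secreted, signalling and other targets none passed (2 at an unadjusted p under 0.05 in edgeR, 0 with DESeq2), from -0.63 for Igfbp3 to 0.84 for Bcl6.

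**Figure D4:**
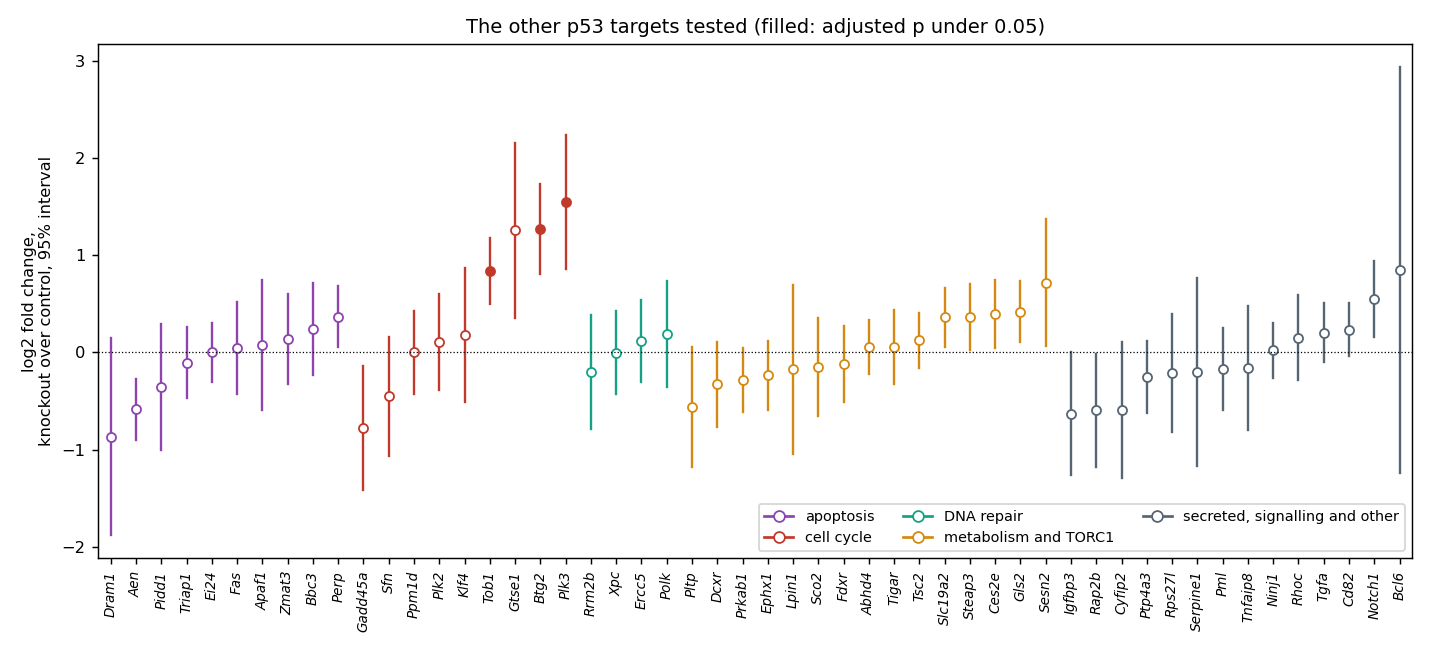
Log2 fold change of knockout over control with 95% intervals for the 52 tested genes of the list of other p53 targets, coloured by role and sorted within it; filled points passed an adjusted p of 0.05. Btg2, Tob1 and Plk3, all cell cycle genes, are filled, and the apoptosis, repair and metabolism genes lie on both sides of 0.

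Paralogs and partners of the members had fold changes above 0 in 11 of 11 tested genes, with a median of 0.41, and 2 of the 11 rose (18.2%, against 1.49%). Upper-quartile scaling and log2(FPKM + 1) turned 2 of the 11 to negative and DESeq2's size factors 1. Ccng2, which encodes cyclin G2 and is known as a target of FOXO factors, rose from 5.89 ± 0.254 to 14.4 ± 4.08 CPM (SD, n = 3), a log2 fold change of 1.29 ± 0.21 (SE; adjusted p = 0.0242). Its paralog Ccng1 had -0.25. Trp53inp2, an autophagy protein related to Trp53inp1, rose from 152 ± 16.9 to 263 ± 9.34 CPM, a log2 fold change of 0.80 ± 0.14 (adjusted p = 0.0284). Sesn2, the stress-induced sestrin, was at 0.72 ± 0.29 with an adjusted p of 0.229, while its paralog Sesn1 was at -0.29. Mdm4, the partner of Mdm2 that masks the activation domain of p53, was at 0.00 ± 0.22 (adjusted p = 0.998). Without control replicate 2 and without knockout replicates 2 and 3, Ccng2 and Trp53inp2 both lost their call, and Trp53inp2 also lost it without knockout replicate 1. On log2(FPKM + 1), on log2(TPM + 1) and with the replicate block 0 of the 11 were called.

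None of 25 tested regulators of p53 passed in either direction (3 at an unadjusted p under 0.05 in edgeR, 0 with DESeq2), with 13 positive and 12 negative fold changes and a median of 0.00. The 3 with the smallest p were Usp10, a deubiquitinase that spares p53, at 0.52 ± 0.16 (SE), Cul9, a cytoplasmic p53 anchor, at -0.49 ± 0.19, and the RNA helicase gene Ddx5 at 0.33 ± 0.13, with adjusted p of 0.134 to 0.23.

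Genes that p53 is known to repress through p21 and the DREAM complex, which serve DNA replication and mitosis, were tested for 30 of 35 listed. Of the 30, 1 rose and none fell (3.33%, against 1.49%), with 16 positive and 14 negative fold changes and a median of 0.04. Leaving out control replicate 3 gave a median of 0.23, and leaving out control replicate 1 gave -0.12. The called gene was Spc25, a kinetochore subunit, at 3.69, 2.997 and 2.59 CPM in controls and 9.89, 8.80 and 7.56 CPM in knockouts (1.51 ± 0.19, log2 and SE; adjusted p = 0.0101). The list as a whole summed to 88.9 to 109 CPM in controls and 95.3 to 105 CPM in knockouts, ranges that overlap. Among 11 tested inhibitors, cyclins and kinases around p21 none passed (1 at an unadjusted p under 0.05 in edgeR, Cdk2 at 0.44 ± 0.17; 0 with DESeq2), and Rb1 was at 0.40 ± 0.18 and Cdkn2c at 0.49 ± 0.22.

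In the BCL2 family, where Bax belongs, 1 of 15 tested genes fell and none rose (6.67%, against 1.49%), while both DESeq2 settings also called Bnip3l, a mitophagy receptor, higher. This was Bid, a BH3-only protein that links death receptors to Bax, at 14.1, 16.9 and 16.03 CPM in controls and at 5.80, 4.8 and 8.18 CPM in knockouts. The log2 fold change was -1.32 ± 0.20 (SE; adjusted p = 0.0166), and the call was lost without control replicate 2, without knockout replicates 1 and 2 and on log2(TPM + 1). The family had 8 positive and 7 negative fold changes and a median of 0.05.

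Since Gdf15 and Sesn2 also answer to the integrated stress response, 16 tested genes of ATF4 and CHOP were read beside them. Of these 1 rose, Asns, the asparagine synthetase gene (2.77 ± 0.39, log2 and SE; adjusted p = 0.0131), and none fell (6.25%, against 1.49%), while both DESeq2 settings and the fit with the length trend removed also called Cebpb, a liver transcription factor gene, higher. Asns lost its call without control replicate 2 and without knockout replicate 1. The list had 8 positive and 8 negative fold changes and a median of -0.01.

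**Figure D5:**
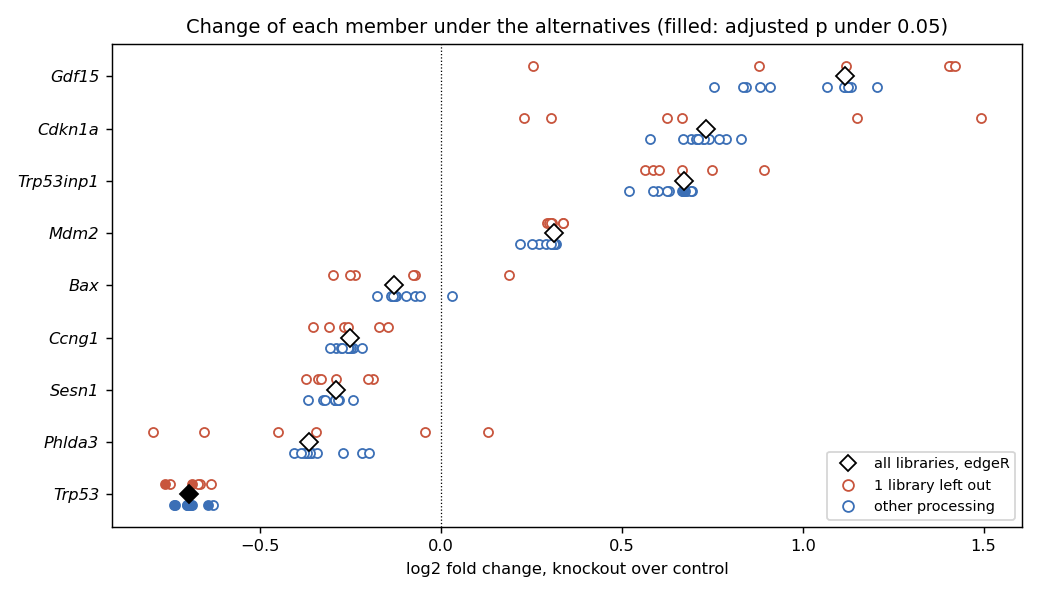
Log2 fold change of each tested member with all libraries in edgeR (diamonds), with 1 library left out (red) and under other processing (blue); filled symbols passed an adjusted p of 0.05. Trp53 keeps its sign and loses its fill in 7 of 18 alternatives, Bax and Phlda3 cross 0, and Cdkn1a ranges from 0.23 to 1.49.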

How the data were processed

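The authors deposited 1 table with, per the file headers, estimated counts, FPKM and TPM per gene and library and their DESeq2 log2 fold change, p-value and q-value. They used HISAT2, Bowtie2 and RSEM 1.3.1 on build GRCm38, per the submitters' processing notes; the sources used here give no strand setting or annotation release. Columns were matched to samples by group and number. Estimated counts (4.55% to 4.98% of values per library differ from a whole number by over 0.01) were rounded. All 6 libraries differed from each other by more than sampling noise (smallest chi-square 18.9 times its degrees of freedom).

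Genes were filtered with filterByExpr, scaled with TMM factors and tested by genotype alone in edgeR 4.0.16 (R 4.3.3; glmQLFTest), and p-values were adjusted by Benjamini and Hochberg's method over all 12173 genes; standard errors came from the F statistic. The procedure was checked on simulated counts with known changes in either direction. It called 8.82% of genes changed by 0.5 on the log2 scale, 62.5% at 1 and 100% at 2. Of all its calls there, 5.08% were false. Alternatives used DESeq2 1.42.0, limma 3.58.1, other scalings and filters, log2(FPKM + 1), log2(FPKM + 0.1) and log2(TPM + 1), a trend on transcript length (found for 98.1% of genes in GENCODE M21), and each library left out. Same-numbered libraries did not deviate together (r of -0.16, -0.079 and -0.076), so no effect shared by number was seen. Pairs that share no such effect would not show in these values. Named genes were the members, the called genes of each list or otherwise its 3 of smallest p, and the 5 genes most like the member of smallest p. Further genes were named after their values were seen: the ends of the role groups, Bbc3, Fas, Aen, Gls2, Bnip3l, Cebpb, Sesn2, Mdm4, Klrb1c and Wrap53. Members and lists were chosen with earlier results of these data known. Reads amplified by PCR carry no molecular identifiers here, so intervals on counts cover counting error only.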

Additional observations from a re-analysis of the deposited data

How the results depend on the processing

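The count of genes called, 181, was 330 without a low-count filter, 634 and 636 with DESeq2 on all genes and on the filtered genes, 110 on log2(FPKM + 1), 79 on log2(TPM + 1), 513 at an adjusted p of 0.1 and 87 with the replicate number as a block; on log2(FPKM + 0.1) the split was 52 higher and 74 lower. With 1 library left out it ran from 43 to 668. Of the members, 1 was called; DESeq2 called 2 in both settings (Trp53 lower, Trp53inp1 higher), and 0 were called on log2(FPKM + 1), on log2(TPM + 1) and with the replicate block, with 0 to 1 when a library was left out. Of the other p53 targets, 3 were called, 5 with DESeq2 on all genes, 1 on log2(FPKM + 1) and 1 with the replicate block, and 0 to 4 with a library left out. The members' median of -0.13 ran from -0.19 to 0.19 with a library left out. Bax turned to 0.0302 with the length trend removed, and with a library left out it ran from -0.30 to 0.19 (positive without control replicate 1); Phlda3 ran from -0.79 to 0.13 (positive without control replicate 2); the other 7 tested members kept their sign in 18 of 18 alternatives. None of the 6 libraries correlated best with its own number. The causes of these differences were not tested.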
